A study of Arabidopsis thaliana with 6 samples.

Results

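Cassette exons are internal exons that some transcripts of a gene contain and others leave out, and those described here have a length that is not a multiple of 3. They were taken from the transcript annotation that the authors deposited. An exon counted where both of its flanking introns were replaced, in another transcript of the same gene, by a single intron joining the same outer splice sites. The annotation held 1503 such events (1470 distinct exons in 1127 genes). Of these, 793 events (770 exons in 619 genes) had a length that is not a multiple of 3, with a remainder of 1 base in 382 and of 2 bases in 411. The other 710 had a length that is a multiple of 3. The exons of the 793 events were 1 to 2333 bases long, with a median of 82 bases over events.

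RNA was sequenced from shoots of Arabidopsis thaliana seedlings of the Col-0 accession at 3 weeks of age. Wild type (WT) and the sme1-1 mutant, which the sample labels write smeb-1, were each sequenced in 3 libraries. Both genotypes were grown in vitro on agar with MS salts and sucrose, with 16 h of light and 8 h of darkness, and harvested under control conditions. The mutant is a single allele in the Col-0 background. Its sample titles carry the letters KO, the usual abbreviation of knockout, and the labels do not state where the allele lies in the gene, how many plants entered a library or whether libraries came from separately grown plants, so p-values measure only the spread between these libraries.

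Pre-mRNA splicing is carried out by the spliceosome, whose small nuclear ribonucleoproteins each carry a ring of Sm proteins. SME1 encodes SmE, a core member of that ring, and SmE-a is its close paralog. Inclusion of a cassette exon that is not a multiple of 3 shifts the reading frame downstream unless another change restores it. Such an exon in coding sequence therefore often places a stop codon before the normal end of the protein, either in the transcript that includes it or in the one that skips it. Transcripts with an early stop well before the last exon junction are typical substrates of nonsense-mediated decay, in which UPF proteins act. Plant genes for splicing factors and clock components are known for such exons.

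The sequences of the exons on which the results turn are printed 5′ to 3′ on the strand of the gene, with 12 intron bases on either side in lower case and the exon in capitals. They were read from the RefSeq sequence of TAIR10.1 at the deposited coordinates. The first set shows exons whose skipping places an early stop in the main skipping transcript. P5CS1 (AT2G39800), encoding a proline biosynthesis enzyme, has its exon at chr2:16602269-16602372 on the minus strand. The exon of BASS2 (AT2G26900), a plastid pyruvate transporter, is at chr2:11477592-11477694, minus strand. That of PFT1 (AT1G25540), a Mediator subunit that acts in flowering, is at chr1:8973807-8973837, minus strand. ACA10 (AT4G29900), a calcium pump, has its exon at chr4:14615249-14615304 on the minus strand, and NHX5 (AT1G54370), an endosomal sodium/proton antiporter, at chr1:20294825-20294885 on the minus strand.
P5CS1 104-base exon: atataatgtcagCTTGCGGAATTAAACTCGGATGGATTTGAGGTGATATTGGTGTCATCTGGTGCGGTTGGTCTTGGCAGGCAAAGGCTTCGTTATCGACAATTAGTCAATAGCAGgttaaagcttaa
BASS2 103-base exon: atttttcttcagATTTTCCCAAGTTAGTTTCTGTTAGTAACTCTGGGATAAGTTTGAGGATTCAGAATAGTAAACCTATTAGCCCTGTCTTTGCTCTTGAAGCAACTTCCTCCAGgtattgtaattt
PFT1 31-base exon: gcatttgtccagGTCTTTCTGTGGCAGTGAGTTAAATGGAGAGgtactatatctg
ACA10 56-base exon: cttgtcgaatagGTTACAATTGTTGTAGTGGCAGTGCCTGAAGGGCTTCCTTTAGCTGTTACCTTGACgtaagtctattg
NHX5 61-base exon: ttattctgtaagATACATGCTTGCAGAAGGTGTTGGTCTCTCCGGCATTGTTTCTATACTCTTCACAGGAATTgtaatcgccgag

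The second set shows 2 forms of one exon of AT4G30690, which encodes a translation initiation factor 3 protein, and the PRR7 exon. The AT4G30690 forms share their 3′ end at base 14961142 of chromosome 4, plus strand, and begin at base 14961108 (35 bases) or 14961103 (40 bases). The 40-base form keeps the 281 codons of the reference protein, whereas the 35-base form and the skipping transcript each stop after 94 codons. PRR7 (AT5G02810) encodes a pseudo-response regulator of the circadian clock. Its exon lies at chr5:640085-640202 on the minus strand. The main including transcript stops after 172 codons in place of 727. That stop begins before the printed exon, so it need not come from the exon. The exon itself holds a stop codon in every reading frame, so a frame that reached it would also end there.
AT4G30690 35-base exon: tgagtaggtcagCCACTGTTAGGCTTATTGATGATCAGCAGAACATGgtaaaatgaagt
AT4G30690 40-base exon: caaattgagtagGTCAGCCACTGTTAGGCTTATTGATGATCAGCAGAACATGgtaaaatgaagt
PRR7 118-base exon: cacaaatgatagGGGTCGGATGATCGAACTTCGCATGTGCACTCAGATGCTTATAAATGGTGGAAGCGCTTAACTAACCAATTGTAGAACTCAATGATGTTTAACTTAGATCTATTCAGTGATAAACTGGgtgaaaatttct

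The third set shows exons with a pair of acceptor sites separated by 3 bases, in which the longer form begins with an additional CAG. LUC7A (UNE6, AT3G03340) and LUC7B (AT5G17440) encode proteins related to a yeast U1 small nuclear ribonucleoprotein component, and PTB2 (AT5G53180) encodes a polypyrimidine tract-binding protein. The exon ends at base 788993 of chromosome 3, plus strand, in LUC7A, and at base 5752673 of chromosome 5, plus strand, in LUC7B. In PTB2 it lies at chr5:21570834-21570894 on the minus strand. The shorter LUC7A and LUC7B stretches printed here share a run of 19 bases.
LUC7A 38-base exon: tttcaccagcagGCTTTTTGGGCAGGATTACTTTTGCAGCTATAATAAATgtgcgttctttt
LUC7A 41-base exon: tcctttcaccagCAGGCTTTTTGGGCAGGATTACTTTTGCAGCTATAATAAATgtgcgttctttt
LUC7B 47-base exon: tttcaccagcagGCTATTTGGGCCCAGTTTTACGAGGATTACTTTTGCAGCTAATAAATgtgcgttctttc
LUC7B 50-base exon: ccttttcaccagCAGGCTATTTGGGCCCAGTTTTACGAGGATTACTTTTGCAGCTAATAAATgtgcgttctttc
PTB2 58-base exon: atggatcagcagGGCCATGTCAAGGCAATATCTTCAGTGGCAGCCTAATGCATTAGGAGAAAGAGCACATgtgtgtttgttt
PTB2 61-base exon: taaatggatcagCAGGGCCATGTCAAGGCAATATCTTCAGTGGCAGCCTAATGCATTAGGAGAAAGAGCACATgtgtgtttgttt

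Inclusion was measured from the deposited transcript TPM (a transcript level relative to all transcripts of the library). In each library the TPM of transcripts with the exon and both introns were summed as including, and those with the joining intron as skipping. The included share is the including sum as a percentage of both. Of the 793 events, 550 (534 distinct exons in 431 genes) passed the filters and were tested. Tested events are called exons below, and an exon in several events is counted in each. Another 125 had a mean sum under 2 TPM, 2 of them listed at 0 in all libraries, and 118 had a mean included share outside 2% to 98% (29 above and 89 below). Each test compared the log2 ratio of including to skipping TPM, with 0.1 TPM added to both, between sme1 and WT. It used limma with Benjamini-Hochberg adjustment over all 904 cassette exons tested, of any length, and a threshold of 0.05.

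SME1 was at 76.9, 73.9 and 75.3 TPM in the WT libraries and at 36.1, 31.6 and 29.7 TPM in the sme1 libraries, so its level was lower in the libraries titled KO but not near 0 (log2 change -1.19, adjusted p = 4.4e-05, limma). SmE-a was higher in sme1 (log2 change 0.49, adjusted p = 0.00183). All 4 leaf markers were abundant in both genotypes, at means of 3142 to 12381 TPM. All 4 root markers were low in WT and higher in sme1, with means of 0.123 to 0.645 TPM in WT and 2.26 to 18 TPM in sme1. Whether the sme1 libraries held root RNA, or these genes were higher in the shoots themselves, was not tested. Any part of root RNA in the exon results was not tested either. Log2 ratios of the tested exons correlated at 0.910 to 0.925 between WT libraries, 0.927 to 0.933 between sme1 libraries and 0.889 to 0.904 across genotypes, a description over exons that share transcripts and genes.

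Inclusion of these exons lay somewhat lower in sme1, and few single exons passed the test. The inclusion to skipping ratio fell in 4 of the 550 exons (AT4G14520, KAT5, AT2G42190 and AT4G30690) and rose in 0 (adjusted p under 0.05, limma), where 0.664% of all cassette exons tested were called. At an unadjusted p under 0.05, 81 were lower and 25 higher in sme1, and 18.8% of all cassette exons were past that level. The median log2 change was -0.26 (quartiles -0.86 and 0.35), and 342 of 550 (62.2%) lay below 0. Over exons with a length that is a multiple of 3, the median was -0.15, with 203 of 354 (57.3%) below 0, 2 called lower and 0 higher. The difference between the length classes was not tested.

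The median included share was 45.8%, 44.4% and 43.5% in the WT libraries and 40.1%, 39.3% and 41.3% in the sme1 libraries. All 3 sme1 medians lay below all 3 WT medians. For exons whose length is a multiple of 3, the medians were 43.0%, 44.8% and 41.1% in WT and 38.3%, 39.5% and 42.5% in sme1, and the genotypes overlapped. By single exon, the log2 ratio of every sme1 library lay below every WT library for 114 exons (20.7%) and above for 47 (8.55%), so 161 (29.3%) did not overlap. Over all cassette exons tested these shares were 19.4%, 8.63% and 28.0%, so the counts for exons that are not a multiple of 3 lay near that background. The median standard error of a log2 change was 0.44, so a change of the median size was not detectable for a typical single exon.

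**Figure D1:**
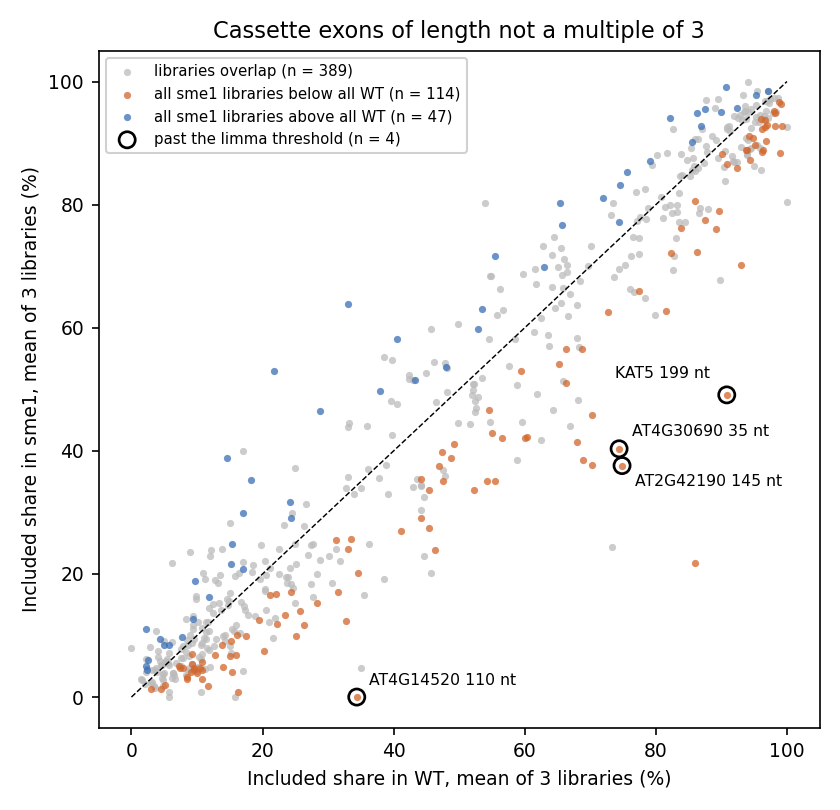
Mean included share in WT (x axis, %) against sme1 (y axis, %) for the 550 tested exons, each point 1 exon and the mean of 3 libraries per genotype; the 2 exons with both forms listed at 0 in a WT library are counted and not drawn. The 114 exons whose sme1 libraries all lie below WT outnumber the 47 whose sme1 libraries all lie above, and the 4 circled exons are those past the limma threshold.

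KAT5 (AT5G48880) encodes a peroxisomal 3-ketoacyl-CoA thiolase of fatty acid beta-oxidation. Its 199-base exon, at chr5:19816923-19817121 on the minus strand, holds the reference start codon. Including transcripts were at 3.96, 7.68 and 8.03 TPM in WT and at 33.8, 26.2 and 26.1 TPM in sme1. The skipping transcript was at 0.199, 0.709 and 1.34 TPM in WT and at 53.4, 21.7 and 22.3 TPM in sme1. Both forms were therefore higher in every sme1 library than in any WT library, the skipping one by more. The included share went from 90.8% ± 4.82 (SD, n = 3) to 49.1% ± 8.95 (n = 3), a log2 change of the ratio of -3.23 (SE 0.44, adjusted p = 0.0363, limma). A 107-base form of the exon shares the downstream end and the skipping transcript, and was at a log2 change of -4.70 with an adjusted p of 0.0638, just outside the threshold.

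AT2G42190, annotated in RefSeq as a rho GTPase-activating gacO-like protein, has a 145-base cassette exon in its 5′ UTR at chr2:17582997-17583141, plus strand. Including transcripts were at 19.8, 17.5 and 21.0 TPM in WT and at 2.39, 2.53 and 4.25 TPM in sme1. Skipping transcripts were at 7.71, 5.56 and 6.38 TPM in WT and at 4.70, 4.89 and 5.20 TPM in sme1. The genotypes did not overlap in either form, and the difference was larger in the including one. The included share went from 74.8% ± 2.5 to 37.6% ± 6.38 (SD, n = 3 each), a log2 change of the ratio of -2.28 (SE 0.29, adjusted p = 0.0360, limma).

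The 35-base exon of AT4G30690, whose sequence is printed above beside its 40-base form, also fell. Transcripts with the 35-base form were at 14.9, 21.1 and 18.2 TPM in WT and at 4.24, 4.23 and 3.36 TPM in sme1. The skipping transcripts were at 5.20, 8.94 and 4.88 TPM in WT and at 6.34, 7.92 and 3.93 TPM in sme1. Only the including form separated the genotypes. The log2 change of the ratio was -2.09 (SE 0.30, adjusted p = 0.0411, limma), the value just inside the threshold. The productive 40-base form was at 164 ± 15.0 TPM in WT and 48.9 ± 6.13 TPM in sme1 (SD, n = 3 each). Against the same skipping transcripts its log2 change was -1.68 and did not pass (adjusted p = 0.131), and no test compared the 2 forms with each other.

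AT4G14520, annotated as a DNA-directed RNA polymerase II-like protein, has a 110-base exon in its 5′ UTR at chr4:8341936-8342045, plus strand. Including transcripts were at 0.725, 0.815 and 0.916 TPM in WT. They were listed at 0 in 2 sme1 libraries and at 4.1e-06 TPM in the other. Skipping transcripts were at 1.29, 2.06 and 1.45 TPM in WT and at 1.70, 2.23 and 2.28 TPM in sme1, and overlapped. The test gave an adjusted p of 0.00773 (limma). Its log2 change of -3.56 depends on the 0.1 TPM added and was -1.70 with 0.5 TPM added, and it was -1.57 when transcripts with the exon between any introns were counted. Reads are few at this level, and TPM do not give their number.

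None of these 4 calls held whichever library was left out. AT4G14520 kept its call in every case but one (adjusted p = 0.0532 without sme1 replicate 3). KAT5 kept it only without WT replicate 3 (0.0396) and AT2G42190 only without WT replicate 1 (0.0474). For KAT5 the adjusted p was otherwise 0.0551 to 0.126, and for AT2G42190 0.0532 to 0.126. AT4G30690 lost it in all 6 cases (0.0658 to 0.161). Without the mean-variance trend only AT4G14520 was called (adjusted p = 0.0161). On leaving out a library the log2 changes stayed negative throughout, between -2.93 and -3.57 for KAT5, -2.17 and -2.5 for AT2G42190, -1.92 and -2.26 for AT4G30690, and -3.43 and -3.75 for AT4G14520.

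The exons with the highest summed level did not pass the test, and they included both directions. P5CS1 had the highest level of all. Its including transcripts were at 96.8, 157 and 149 TPM in WT and at 1268, 1019 and 1247 TPM in sme1 and its skipping transcripts at 7.56, 19.7 and 22.0 and at 365, 269 and 308 TPM. The included share was 92.8%, 88.9% and 87.1% in WT and 77.7%, 79.1% and 80.2% in sme1. All sme1 libraries thus lay below all WT libraries, with a log2 change of the ratio of -1.22 (SE 0.34, adjusted p = 0.131, limma). The main skipping transcript stops after 53 codons in place of 717.

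BASS2 lay on the other side. Its including transcripts were at 127, 113 and 125 TPM in WT and at 166, 179 and 161 TPM in sme1, and its skipping transcripts at 20.1, 29.9 and 29.6 and at 13.2, 14.7 and 4.30 TPM. The included share was 82.1% ± 3.75 in WT and 94.1% ± 2.82 in sme1, with no overlap of libraries (log2 change 1.93, SE 0.53, adjusted p = 0.130, limma). The main skipping transcript stops after 66 codons in place of 409. HOL1 (AT2G43910), a methyltransferase, has a 131-base exon with included shares of 86.9% ± 2.65 in WT and 92.8% ± 2.40 in sme1 (adjusted p = 0.263).

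Among the remaining exons of high level, CKL2 (AT1G72710), a casein kinase 1-like protein, had a 149-base exon with a mean skipping level of 1.52 TPM in WT and 3.84 TPM in sme1, beside 162 and 101 TPM for inclusion (log2 change -2.14, adjusted p = 0.159). The 70-base 5′ UTR exon of BPS1 (AT1G01550) was included at 98.1% ± 0.66 in WT and 95.2% ± 1.34 in sme1 (adjusted p = 0.215). DYL1 (AT1G28330), a dormancy-associated protein, was lower in both forms of its 116-base exon, from 334 to 50.1 TPM with the exon and from 228 to 44.5 TPM without it. Its included share was 59.4% ± 1.15 and 52.9% ± 2.66 (adjusted p = 0.374). A 25-base exon of AT2G30600 was also in a strongly lower gene, from 109 to 6.81 TPM including and from 146 to 6.27 TPM skipping, and its shares overlapped between genotypes. Large differences in the level of both forms were thus seen with small differences in the share.

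**Figure D2:**
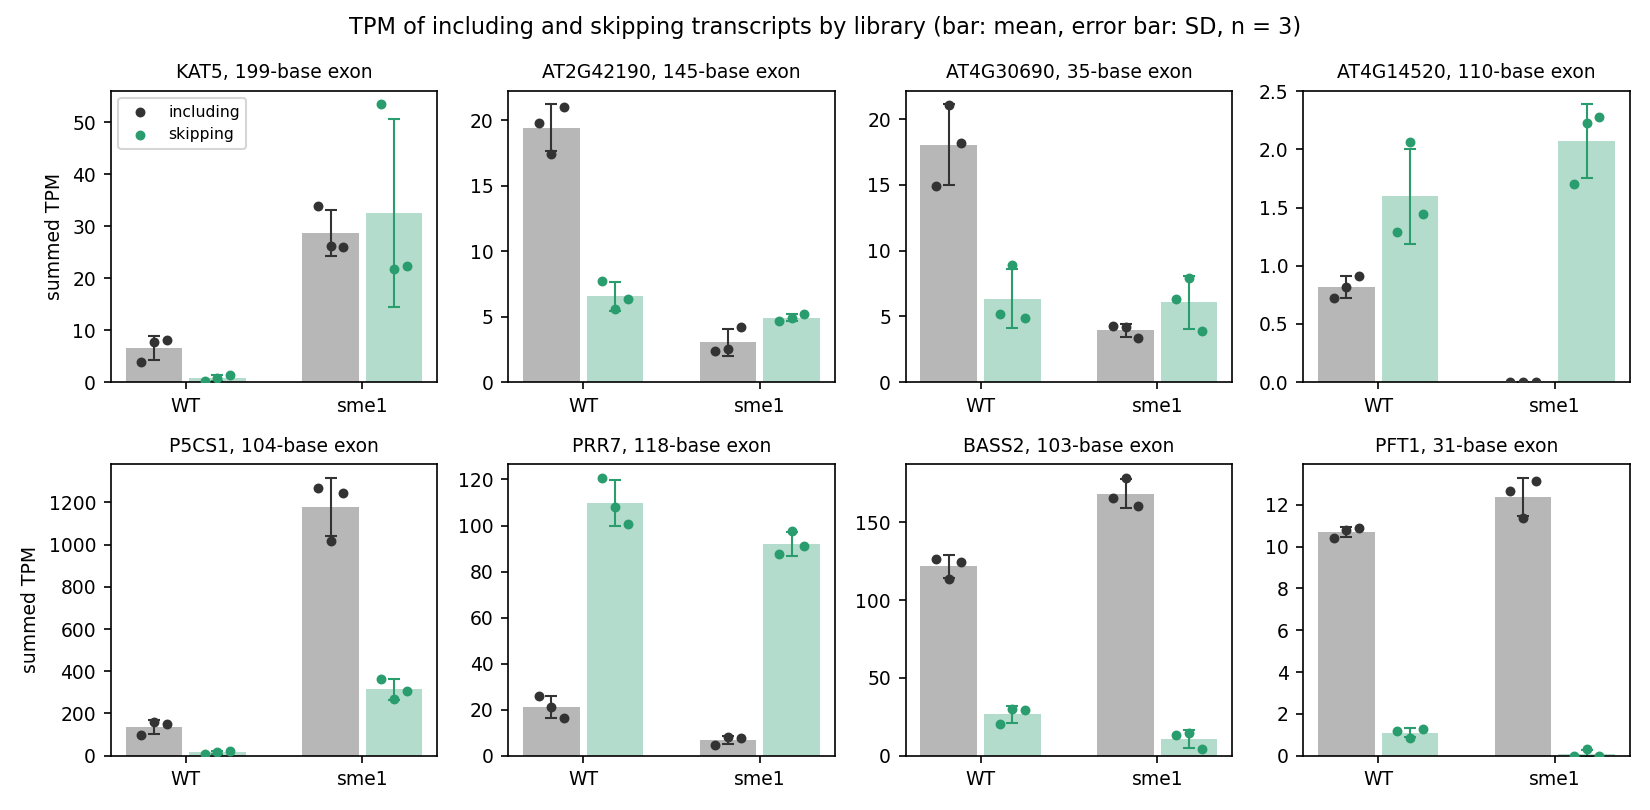
Summed TPM of including (black) and skipping (green) transcripts in WT and sme1 for 8 exons, with points for libraries, bars for means and error bars for the SD (n = 3). The upper row holds the 4 exons past the threshold and the lower row 4 that are not. P5CS1 is higher in both forms in sme1, and the PRR7 including form is lower.

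In clock and flowering genes, the list of 22 held 5 of these exons in 4 genes, of which 4 in 3 genes were tested and 0 called (adjusted p 0.106 to 0.549). Their median log2 change was -1.04, against -0.22 over all cassette exons. PRR7 including transcripts were at 25.9, 20.9 and 16.5 TPM in WT and at 4.76, 8.15 and 7.70 TPM in sme1, whereas the skipping, productive transcripts were at 110 ± 10.2 and 92.1 ± 5.21 TPM (SD, n = 3 each). The included share was 16.0% ± 1.79 in WT and 6.88% ± 1.49 in sme1 without overlap (log2 change -1.37, SE 0.33, adjusted p = 0.106, limma). A 35-base exon of ELF3 (AT2G25930), an evening complex component of the clock, was included at 25%, 0% and 6.66% in WT and at most 2.70% in sme1, and WT replicate 1 stood apart. MAF2 (AGL31, AT5G65050), a floral repressor, had 2 exons that overlapped between genotypes, of 58 bases (93.6% and 95.1%) and 167 bases (44.6% and 32.6%).

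In splicing factor genes, the list of 40 held 16 exons in 9 genes, of which 15 were tested and 0 called (adjusted p 0.268 to 0.917). The median log2 change was 0.11, with 6 of 15 below 0, against -0.22 over all cassette exons. For 2 of the 15 (13.3%) all sme1 libraries lay above WT and for 2 (13.3%) below, where 8.63% and 19.4% of all cassette exons did, and 0.664% of those were called. SR34a (AT3G49430), a serine/arginine-rich splicing factor, had a 224-base 5′ UTR exon included at 17.7%, 13.8% and 14% in WT and at 21.0%, 19.8% and 23.9% in sme1. SCL30 (AT3G55460), of the same protein family, had a 449-base and a 541-base form of one exon, both ending the reading frame after 104 codons in place of 262. The 449-base form was at 7.71% ± 1.18 and 9.73% ± 0.409 and the 541-base form at 7.48% ± 1.08 and 4.66% ± 0.707, so the 2 forms separated the genotypes in opposite directions with neither past the test (adjusted p = 0.515 and 0.310, limma).

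The 38-base LUC7A exon was included at 26.7%, 18.7% and 18.2% in WT and at 14.7%, 17.7% and 17.2% in sme1, and every sme1 value lay below every WT value by a small margin. The 41-base form was at 7.57% ± 3.01 and 6.34% ± 2.87. In LUC7B the 47-base and 50-base forms were at 26.3% and 49.8% in WT and at 27.8% and 44.6% in sme1, with overlap. PTB2 was at 15.0% and 16.9% for the 58-base form and at 15.6% and 10.7% for the 61-base form. These pairs belong to 9 pairs of exons that differ by 3 bases, all at the acceptor site, of which 6 had both forms tested and none was called in either form. Forms of a pair share their skipping transcripts. The including transcripts of a pair can also differ elsewhere, as in LUC7B, whose main ones stop after 301 and 246 codons.

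The other splicing factor exons overlapped between genotypes. They were the 80-base exon of SR34 (78.3% ± 1.46 in WT and 82.6% ± 3.64 in sme1), the 67-base and 257-base exons of RS40 (5.34% and 5.79%, and 11.2% and 19.2%), the 326-base exon of RS41 (11.4% and 10.5%) and the 38-base and 101-base exons of U2AF65B (AT1G60900; 9.33% and 11%, and 66.4% and 69.1%). SR34, RS40 and RS41 are serine/arginine-rich splicing factors, and U2AF65B helps to recognise the 3′ splice site. TFIIIA (AT1G72050), a transcription factor for 5S ribosomal RNA known for an exon that resembles that RNA, had a 175-base exon included at 79.4% ± 4.18 and 86.5% ± 9.08 (adjusted p = 0.428, limma). Whether this is the exon that resembles 5S RNA was not examined. Its main including transcript has the 324 codons of the reference, which is the transcript of the gene with the highest mean TPM and an annotated start codon. No codon count was obtained for the skipping transcript, and an early stop was not assessed. The match therefore does not show which form encodes the full-length protein.

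**Figure D3:**
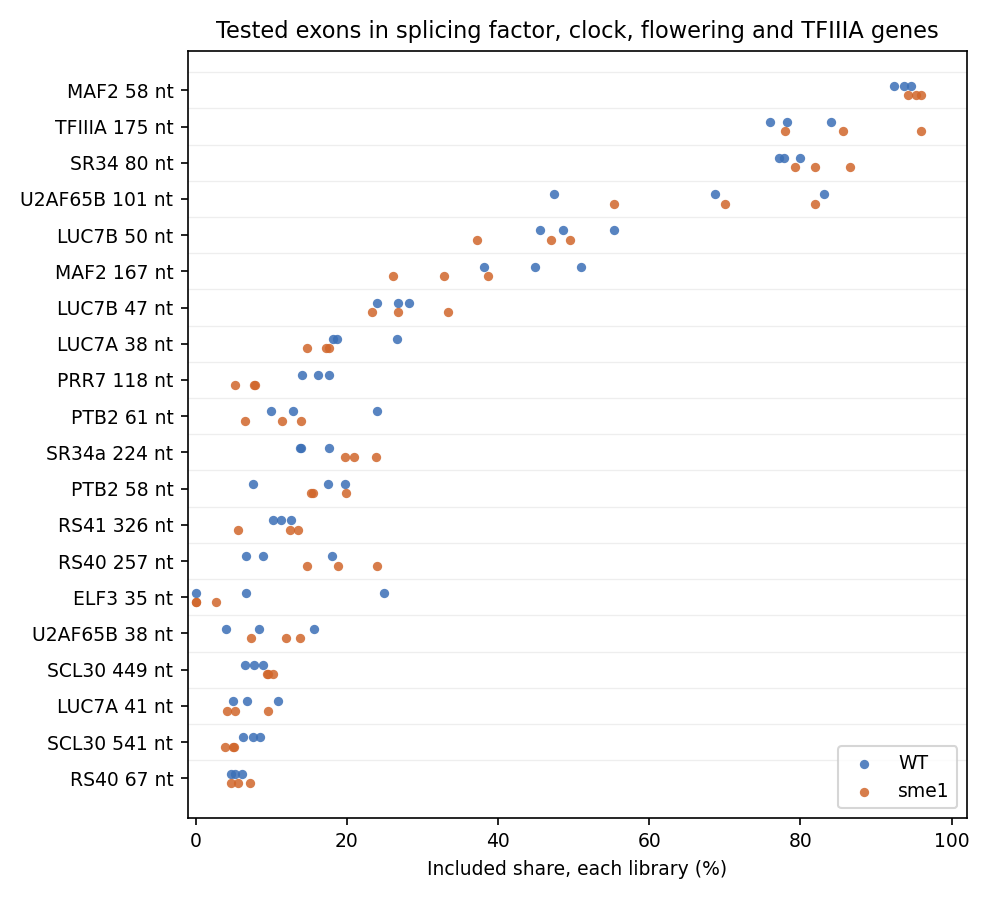
Included share (x axis, %) in each library for the 20 tested exons in genes of the splicing factor, clock and flowering, and TFIIIA lists, WT in blue and sme1 in orange. The PRR7 exon is at 14.1% to 17.6% in WT and 5.16% to 7.80% in sme1, and most of the others overlap between genotypes.

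Several exons outside these lists separated the genotypes without passing the threshold, and are given because of their size or their host gene. In PFT1 the transcripts that skip the 31-base exon were at 1.18, 0.852 and 1.28 TPM in WT and in sme1 at 0.301 TPM in replicate 2, listed at 0 in replicate 3 and under 0.001 TPM in replicate 1. Including transcripts were at 10.7 ± 0.247 and 12.4 ± 0.902 TPM (log2 change of the ratio 3.11, adjusted p = 0.0832, limma). The main skipping transcript stops after 46 codons in place of 836. With skipping near 0, that change depends on the 0.1 TPM added. It was 1.64 (adjusted p = 0.0429) with 0.5 TPM and 1.13 (0.0234) with 1 TPM, and 3.84 (0.0489) without sme1 replicate 2. ACX3 (AT1G06290), a peroxisomal acyl-CoA oxidase, had a 118-base exon included at 86.3% ± 0.870 in WT and 94.9% ± 0.986 in sme1 (adjusted p = 0.0797). For BCA3 (AT1G23730), a carbonic anhydrase, the shares of a 49-base exon were 87.4% ± 1.03 and 95.6% ± 2.71 (adjusted p = 0.124). In these 3 genes the skipping transcript is the one with the early stop, and its share was lower in sme1.

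NHX5 and ACA10 lay the other way. The NHX5 exon was included at 88.5%, 83.7% and 86.6% in WT and at 73.9%, 68.9% and 74.1% in sme1 (log2 change -1.25, adjusted p = 0.103, limma). Its main skipping transcript stops after 271 codons in place of 521. The ACA10 exon was included at 96.9% and, in 2 libraries, over 99.9% in WT, and at 92.5%, 81.2% and 91.3% in sme1 (log2 change -4.63, SE 1.19, adjusted p = 0.117). That change also depends on the TPM added, at -3.23 (adjusted p = 0.0357) with 0.5 TPM and -2.71 (0.0111) with 1 TPM, and was -6.00 (0.0288) without WT replicate 1. In LSM1A (AT1G19120), a subunit of the ring that promotes mRNA decapping, a 116-base exon was at 94.4% ± 3.56 and 87.2% ± 0.258 (adjusted p = 0.263). Skipping transcripts with an early stop thus took a higher share in some genes and a lower share in others.

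RNA-binding and RNA-processing genes also held such exons. AT2G41060, an RNA-binding protein with RRM motifs, had a 431-base 3′ UTR exon included at 12.6%, 15.9% and 15.4% in WT and at 30.8%, 41.1% and 44.4% in sme1 (log2 change 1.83, adjusted p = 0.0638, limma). CPSF73-I (AT1G61010), a subunit of the cleavage and polyadenylation complex, had a 40-base 3′ UTR exon at 46.3% ± 6.78 and 23.9% ± 3.67 (adjusted p = 0.0797). In AT1G15200 a 104-base exon with an early stop was at 20.2% ± 2.53 and 7.47% ± 1.09 (adjusted p = 0.0747). An 82-base exon of RBP45A (AT5G54900), an RNA-binding protein, was at 10.4% ± 1.44 and 4.69% ± 0.872 (adjusted p = 0.131).

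AT5G56140 and AT4G26480, both annotated as RNA-binding KH domain proteins, had exons of 146 and 140 bases with a higher share in every sme1 library than in any WT library, at 28.7% ± 1.75 and 46.5% ± 3.06 (adjusted p = 0.0797), and at 53.5% ± 1.68 and 63.1% ± 3.41 (adjusted p = 0.263). In both genes the skipping transcript stops early, and its level went from 94.3 ± 9.22 to 31.0 ± 2.89 TPM in AT5G56140. LIG6 (AT1G66730), a DNA ligase, had a 98-base exon at 40.5% ± 4.50 and 58.1% ± 3.26 (adjusted p = 0.117, limma). Apart from the 4 exons called, none of the exons named passed the test with 0.1 TPM added. Of these 42, 18 were called with 1 TPM added (adjusted p 0.00698 to 0.0436, limma), among them those of P5CS1, BASS2, PRR7, NHX5, ACX3, BCA3, AT2G41060 and AT5G56140. With 1 TPM added, 10.3% of all cassette exons tested were called. The exons described as separating the genotypes outside the lists were chosen after their values were seen, so the 2 shares are not comparable.

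By place in the transcript, 343 tested exons lay between the start and stop codon (median log2 change -0.27), 166 in a 5′ UTR (-0.25), 20 in a 3′ UTR (-0.31) and 21 in genes with no coding sequence (-0.34). Exons of at most 51 bases (121, median -0.29) and of 52 to 150 bases (345, median -0.31) lay further below 0 than those over 150 bases (84, median -0.03). Among the last, 9.52% had all sme1 libraries below WT and 14.3% above, against 24.6% and 6.96% of the middle class and 19.4% and 8.63% of all cassette exons. Exons whose length is a multiple of 3 had another order of medians, at 0.02 for at most 51 bases, -0.22 for 52 to 150 bases and -0.11 for longer ones. By share in WT, the median was -0.21 for 179 exons included at under 20%, -0.26 for 225 at 20% to 80% and -0.44 for 144 over 80%, leaving out 2 exons with both forms listed at 0 in a WT library. The 260 exons with a remainder of 1 (-0.29) and the 290 with a remainder of 2 (-0.24) were close. Splice sites were regular, with GT at the donor of 545 exons, GC at 5 and AG at the acceptor of all 550.

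For exons between the start and stop codon, the reading frame of the main including and main skipping transcript was followed from the annotated start, and a stop more than 50 bases before the last exon junction was called early. The early stop was in the including transcript for 112 exons, in the skipping transcript for 93, in both for 38 and in neither for 51, and 49 were not assessed. The stop lay inside the exon itself in 83 of the 112. The median log2 change was -0.43 where the including transcript stopped early, with 24.1% of exons whose sme1 libraries all lay below WT and 7.14% above. It was -0.06 where the skipping transcript did, with 23.7% below and 16.1% above, -0.19 for both and -0.16 for neither. The 49 exons not assessed had a median of -0.38, with 20.4% below and 6.12% above, close to the class with the stop in the including transcript. The shares below WT were close in the first 2 classes, and over all cassette exons 19.4% lay below and 8.63% above. The median shares behind these classes differ, at 15.5% in WT and 11.4% in sme1 where inclusion brings the stop, and 87.4% and 87.2% where skipping does.

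The class in which inclusion brings the stop was not limited to lengths that are not a multiple of 3. Among exons whose length is a multiple of 3, 36 had an early stop in the including transcript and a median of -0.44, and 162 had one in neither and a median of 0.03. The main transcripts can also differ elsewhere in the gene, so a stop assigned to a transcript need not come from the exon. The differences between classes were not tested.

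**Figure D4:**
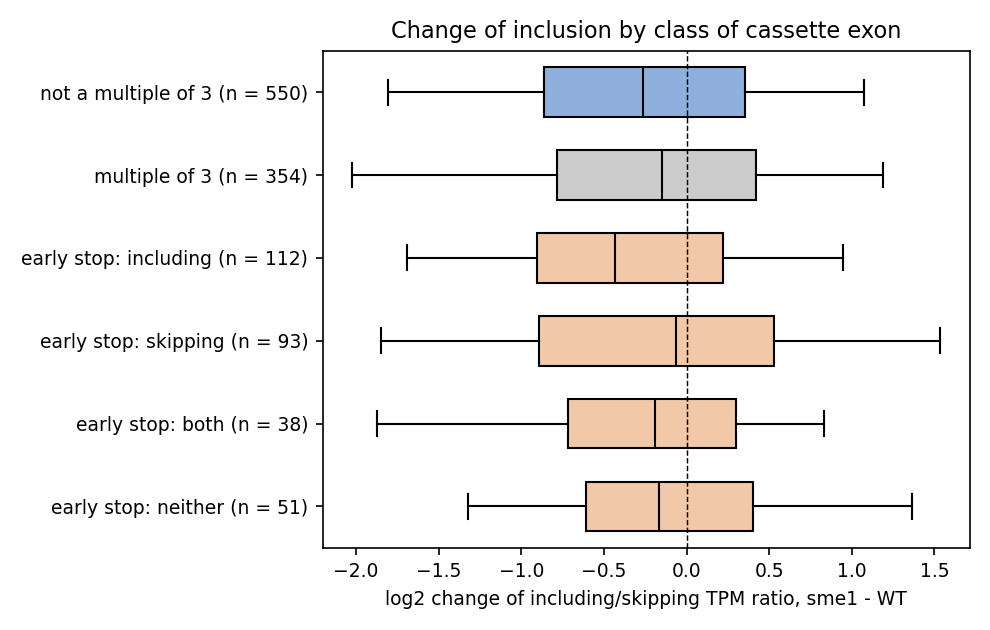
Log2 change of the including to skipping TPM ratio, sme1 minus WT (x axis), for classes of tested cassette exons, with boxes from the lower to the upper quartile, lines at the median and whiskers from the 5th to the 95th percentile of exons. The 4 lower boxes hold exons of length not a multiple of 3 between the start and stop codon, and the median is lowest, at -0.43, where the including transcript has the early stop. Exons not assessed for a stop (median -0.38) have no box of their own.

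At the gene level (limma on log2(TPM + 1)), 192 of the 431 host genes were called higher in sme1 and 110 lower, 70.1% in all. Among all 20100 genes tested, 67.3% were called, 47.3% higher and 20% lower, and the median gene was shifted by 0.22 on the log2 scale. The host gene split depended on the scaling: with median-of-ratios scaling, under which the median gene was at -0.03, 118 were higher and 196 lower, and with quantile normalization 127 and 184. How all genes split under either scaling was not counted, so these host gene counts have no background share beside them. A level common to both forms cancels from the ratio of including to skipping transcripts, except through the 0.1 TPM added where a form is low. A scaling of whole libraries leaves the ratio nearly as it is. With TPM as deposited, 103 genes hosted an exon with all sme1 libraries below WT, 41 called higher and 36 lower. For exons with all sme1 libraries above WT, 45 host genes were tested, 23 called higher and 6 lower. Whether the ratio is related to the host gene level was not tested.

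None of the 7 genes on the list of nonsense-mediated decay and exon junction complex factors held one of these exons. Relative to TPM as deposited, 5 were called higher and PYM, which takes exon junction complexes apart, lower (log2 change -0.66, adjusted p = 0.000432, limma). The decay helicase UPF1 was at 27.5, 29.6 and 25.2 TPM in WT and at 38.3, 35.6 and 36.8 TPM in sme1 (log2 change 0.42, adjusted p = 0.00206). The others called higher were UPF2 (0.36) and the junction complex proteins Y14 (0.24), EIF4A3 (0.26) and MAGO (0.15). Y14, EIF4A3 and MAGO lie close to the shift of the median gene (0.22), and UPF1 and UPF2 above it. With median-of-ratios scaling 0 of the 7 were called higher and 3 lower, with Y14, EIF4A3 and MAGO at log2 changes of -0.03, -0.01 and -0.12. The shares of all genes called under that scaling were not counted.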

How the data were processed

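TPM per gene and per transcript were taken as the authors deposited them. Per the labels' protocols, RNA was read as 150 bp paired ends after a stranded mRNA kit. STAR 2.5.2b and kallisto 0.43.0 appear in the submitters' processing notes, with no step assigned to either. The deposited annotation lists 59448 Araport11 and 16761 scallop transcripts, scallop being a transcript assembler, and names no build. Of its 141522 nuclear introns, 99.44% began with GT or GC and ended with AG on TAIR10.1, so sequences were read there. RefSeq held symbols for 37573 of 37869 genes.

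Including and skipping TPM were summed per library with pandas 2.3.3, and log2 ratios (0.1 TPM added) fitted in R 4.3.3 by limma 3.58.1, with a mean-variance trend and no covariate, 3 libraries against 3. The fit was tested on simulated data. Gene levels averaging 1 TPM or more were fitted on log2(TPM + 1), a scale that understates the change of low genes. Every library sums to 1000000 TPM and the depth is unknown. Included shares rest on apportioned reads, not on reads across junctions. Of the 550 tested exons, 266 had only scallop transcripts in one of their sums.

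The members, gene lists and tests were chosen with earlier results of these data known. The lists come from memory, with loci as keys. The decay list as used has 7 genes, and 2 further genes once on it are not reported here. Text names went to the 12 largest falls and rises past the threshold with at least 5 TPM, every tested exon of a list and the 8 exons of highest level. AT4G14520 and all exons described as separating the genotypes outside the lists were chosen after their values were seen, as were the second exons of listed genes and the exons whose sequences are printed. The definition of an early stop was changed once after its classes were seen, so that the reference stop never counts as early, and the restriction to exons between start and stop codon was added then.

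Deviations of same-numbered WT and sme1 libraries had correlations near 0, so the numbers were not taken as pairs. Over exon ratios r was -0.009 to 0.006. Over genes it was 0.017 to 0.056, above the -0.045 to 0.005 of libraries with different numbers. Alternatives changed the added TPM, filters, event definition, transcripts, variance model and scaling, left out each library, and, chosen after seeing the data, used the share without a log scale and robust variances.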

Additional observations from a re-analysis of the deposited data

How the results depend on the processing

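The count of exons called depended on the processing more than the direction did. Against 4 lower and 0 higher, adding 0.5 TPM gave 11 lower and 4 higher, with 2.99% of all cassette exons called. Of the 354 exons whose length is a multiple of 3, 12 were called with 0.5 TPM and 40 with 1 TPM. Adding 1 TPM gave 44 lower and 9 higher among the exons described here, with all 4 exons among them and 10.3% of all cassette exons called. That setting moved the median log2 change to -0.17. A minimum of 5 TPM gave 7 lower and 1 higher (1.52% of all cassette exons called). No filter on the share gave 2 higher (1.37% of all called in either direction) and a fit without the trend 1 lower (0.221%). Araport11 transcripts alone gave 2 lower, KAT5 (adjusted p = 0.0477, limma) and AT4G14520 (0.00748), where 0.949% of all cassette exons were called. AT2G42190 and AT4G30690 were not among the exons tested there, as their events rest on scallop transcripts. The cause of the other differences was not tested. Leaving out a library gave 0 to 4 lower and 0 to 1 higher, with medians from -0.30 to -0.24 and 0% to 0.882% of all cassette exons called. A fit with the replicate number as a block called 0 lower. Correlations of same-numbered libraries were near 0 (r from -0.009 to 0.006 over exon ratios and from 0.017 to 0.056 over genes).

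Single exons that passed no test changed sign on leaving out 1 library. They were U2AF65B (AT1G60900), at -0.14 to 0.87 for the 38-base exon, lowest without WT replicate 1, and at -0.45 to 0.74 for its other exon, which was below 0 without WT replicate 2 and (-0.30) without sme1 replicate 2; PTB2 (58 bases) at -0.18 to 0.59, lowest without WT replicate 1; RS40 (67 bases) at -0.059 to 0.27 and LUC7B (AT5G17440, 47 bases) at -0.101 to 0.25, lowest without sme1 replicate 1; and RS41 at -0.46 to 0.22, highest without sme1 replicate 3.

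Host genes numbered 118 higher and 196 lower with median-of-ratios scaling and 127 and 184 with quantile normalization. The shares of all genes called higher and lower under either scaling were not counted. Of the decay and junction list, 0 were then higher and 3 lower with median-of-ratios scaling, where UPF3 was at -0.16, Y14 at -0.031, MAGO at -0.12 and EIF4A3 at -0.013. Under quantile normalization UPF3 was at -0.0090. TPM give no depth, so how far low transcripts are limited by it is unknown.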
